A study of Rattus norvegicus with 4 samples.

Results

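The genes described here are 10 components of the desmosome: the cadherins Dsc2, Dsc3, Dsg2 and Dsg3, the plakins Dsp and Ppl, and the armadillo proteins Jup, Pkp1, Pkp2 and Pkp3. They were chosen by name, as probe sets annotated with exactly 1 gene symbol that is in this list. Of the 10, 4 were measured by the table used here, Dsc2, Dsp, Jup and Pkp2, with 1 probe set each. The table names 10411 genes in all. Dsc3, Dsg2, Dsg3, Pkp1, Pkp3 and Ppl had no probe set under their own symbol and were not analysed here. The measured set therefore holds 1 cadherin, 1 plakin and 2 linker proteins, and no desmoglein.

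The cells were RTEC11, a rat airway epithelial line from the trachea of transgenic animals. The line is kept in growth by a heat-labile large T antigen of simian virus 40, which the cells of both groups carried. One group was held for 3 days at 33 °C, the permissive temperature, at which the antigen works. The other was held for 3 days at 39 °C, the nonpermissive temperature, at which it does not. Each group had 2 samples, each on 1 Affymetrix array. The series title names growth arrest and differentiation as its subject. Temperature and loss of the antigen cannot be told apart in this design, and 1 cell line was used. Nothing in the labels tells if the 2 replicates of a group came from separate cultures. The p-values therefore measure the spread among the arrays run, and that spread may be technical. In a bulk culture, fewer cells of a kind and less RNA per cell cannot be told apart.

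Desmosomes are spot junctions that tie the keratin filaments of neighbouring epithelial cells together. Desmocollins and desmogleins bind across the gap between the cells, plakoglobin (Jup) and the plakophilins gather on their cytoplasmic tails, and desmoplakin (Dsp) anchors that plaque to keratin. In the airway they hold the lining together, and which cadherins are used differs between simple, basal and stratified layers.

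The start regions of the 3 desmosome genes that rose are shown first, since these genes moved in the same direction. RefSeq's promoter table for GRCr8 held 8 of the 10 genes, among them 3 of the 4 measured. Pkp2 and Pkp3 have no entry. Each run is the 250 bases before the gene's start, 5′ to 3′ on the gene's own strand, which is the minus strand for all 3. They lie at chr18:11757467-11757716 for Dsc2, chr17:26877122-26877371 for Dsp and chr10:85827430-85827679 for Jup. Capitals mark the E-box CAGGTG, the motif that Snail and Zeb repressors bind, and the GC box GGGCGG, the motif of Sp factors, each searched on both strands.
Dsc2: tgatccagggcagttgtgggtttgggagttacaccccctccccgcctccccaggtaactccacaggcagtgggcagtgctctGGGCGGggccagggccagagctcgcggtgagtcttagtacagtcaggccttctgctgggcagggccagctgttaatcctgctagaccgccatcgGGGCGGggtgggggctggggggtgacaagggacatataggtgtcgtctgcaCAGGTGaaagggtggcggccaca
Dsp: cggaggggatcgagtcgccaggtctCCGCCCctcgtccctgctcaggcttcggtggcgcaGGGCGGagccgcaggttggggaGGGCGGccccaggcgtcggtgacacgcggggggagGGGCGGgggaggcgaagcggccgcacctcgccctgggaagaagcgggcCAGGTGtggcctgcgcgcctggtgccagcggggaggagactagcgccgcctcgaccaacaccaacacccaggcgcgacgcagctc
Jup: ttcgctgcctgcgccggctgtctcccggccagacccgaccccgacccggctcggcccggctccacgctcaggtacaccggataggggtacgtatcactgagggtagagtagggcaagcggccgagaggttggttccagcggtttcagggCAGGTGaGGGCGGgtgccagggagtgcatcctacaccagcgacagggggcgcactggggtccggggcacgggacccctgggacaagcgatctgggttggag
All 3 hold 1 copy of CAGGTG, which starts 23 bases before the start in Dsc2, 85 in Dsp and 101 in Jup. The GC box was found 2 times in Dsc2, 4 times in Dsp, of which 1 is on the reverse strand, and 1 time in Jup. No marked motif overlaps another. Over the 8 genes, 5 hold the E-box and 7 the GC box, and 0 hold the AP-1 motif TGANTCA. Among 33469 promoters of the same length in the table, 15.9% hold the E-box, 30.5% the GC box and 6.34% the AP-1 motif. The 3 printed regions are richer in G and C (64.4%, 75.2% and 68.8%) than the median promoter (51.2%), and the motif shares were not compared at equal base composition. These matches are letters in a window and say nothing about binding in these cells.

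Desmocollin 2, desmoplakin and plakoglobin were all higher at 39 °C, in that order of size, while plakophilin 2 was not called. Of the 4 measured, 3 rose and 0 fell. Calls were made with limma across all 15866 probe sets that are not controls, two-sided, at a Benjamini-Hochberg adjusted p under 0.05. By the same rule 12.1% of all probe sets were called higher and 12.6% lower. All 4 desmosome probe sets lie above the 40th percentile of mean level, and among the 9520 probe sets at or above it 18.3% were called higher and 19.8% lower. A log2 level below is the log2 of the intensity plus 16 after quantile normalization, so a fold on that scale understates the change of a dim probe set, the more so the dimmer it is. With 1 or 64 added in place of 16, the log2 change of Dsc2 was 2.44 or 2.36, that of Dsp 1.14 or 1.11 and that of Jup 0.62 or 0.61. The levels of different probe sets are not comparable with each other, only the changes of each.

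Dsc2 encodes the desmocollin found most widely in epithelia and heart. The deposited intensities of its probe set (1375936_at) were 850.1 and 903.3 at 33 °C and 4577.9 and 4758.6 at 39 °C. Both 39 °C arrays lay far above both 33 °C arrays, and within a temperature the arrays were close. On the log2 scale the level went from 9.82 ± 0.06 to 12.24 ± 0.03 (SD, n = 2 each). The change was 2.42 ± 0.08 (SE, 95% interval 2.23 to 2.60), or 5.34-fold (limma adjusted p 3.37e-05). It ranks 60 among the rises of all 15866 probe sets, with 99.6% of probe sets changing less or downward. The rise was 2.01 on the log2 scale, or 4.03-fold, with the arrays scaled to their poly-A spike-in controls, the lowest of the 4 scalings tried.

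Dsp encodes desmoplakin, the plakin that links the plaque to keratin filaments. Its intensities (1388506_at) were 1803.2 and 2179.2 at 33 °C and 4426.1 and 3869.6 at 39 °C. The groups did not overlap, though replicates of either temperature were further apart than for Dsc2. The log2 level went from 10.95 ± 0.18 to 12.08 ± 0.14 (SD, n = 2 each), a change of 1.13 ± 0.11 (SE, 95% interval 0.86 to 1.40) or 2.19-fold (limma adjusted p 0.00065). With the spike-in scaling the change was 0.67, or 1.60-fold, and was still called.

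Jup encodes plakoglobin, the catenin shared by desmosomes and adherens junctions. Its intensities (1387061_at) were 2662.3 and 2591.2 at 33 °C and 3841.6 and 3735 at 39 °C. The 39 °C arrays were again both higher, by a smaller margin and with little spread. The log2 level went from 11.33 ± 0.01 to 11.95 ± 0.03 (SD, n = 2 each), a change of 0.62 ± 0.07 (SE, 95% interval 0.45 to 0.79) or 1.54-fold (limma adjusted p 0.0012). This call depended on the scaling. The change was 0.53 on the deposited scale, 0.38 after median centring and 0.14 with the spike-in scaling, where it was not called (adjusted p 0.326). It was also not called without an intensity trend in the variance model (adjusted p 0.0537).

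Pkp2 encodes plakophilin 2, an armadillo protein that binds desmoplakin and is the main plakophilin of simple epithelia and heart. Its intensities (1388539_at) were 356.3 and 224.8 at 33 °C and 282.9 and 329 at 39 °C. The groups overlapped completely, with both 39 °C values between the 33 °C ones. The log2 change was -0.02 ± 0.22 (SE), with a 95% interval from -0.55 to 0.51 (adjusted p 0.970 by limma). The interval spans changes in both directions. It is not adjusted for the number of probe sets tested, as the calls are, so even a change as large as the rise of Jup might not have been called. The sign turned when the first array of either temperature was left out (0.29 without permissive replicate 1, 0.094 without nonpermissive replicate 1) and on the deposited scale (0.10).

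**Figure D1:**
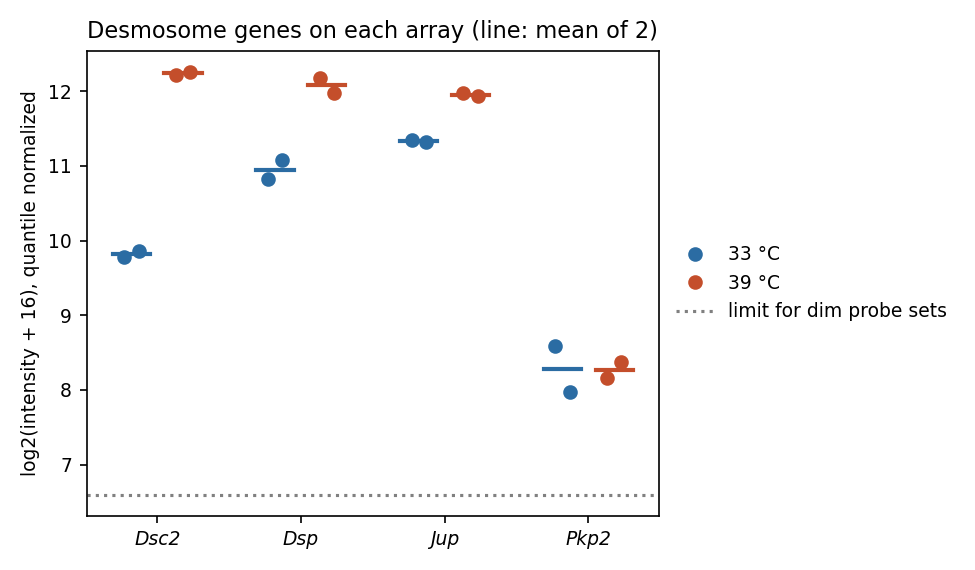
Normalized log2(intensity + 16) of Dsc2, Dsp, Jup and Pkp2 on each of the 4 arrays, 33 °C in blue and 39 °C in red, with lines at the means of 2 arrays and a dotted line at the limit for dim probe sets (6.60). The 39 °C points lie above the 33 °C points for Dsc2, Dsp and Jup and between them for Pkp2.

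Both 39 °C arrays lay above both 33 °C arrays for 3 of the 4 desmosome probe sets, and for 28.4% of all probe sets. The median log2 change of all probe sets was -0.03 after quantile normalization. It was 0.04 on the scale as deposited, -0.10 when arrays were centred on their medians and -0.34 when they were scaled to the spike-ins. The share of all probe sets called higher was 13.8%, 9.97% and 6.06% under these other scalings, and the share called lower 11.4%, 16.1% and 25.8%. The desmosome genes called higher were 3 of 4 on the deposited and the centred scale, and 2 of 4 with the spike-in scaling. Relative to the median of all probe sets, the change of Dsc2 was 2.45 after quantile normalization and 2.35 under each of the others. The change of Dsp relative to the median was 1.16 and 1.01 after quantile normalization and on the deposited scale, and that of Jup 0.65 and 0.48. For Pkp2 it was 0.012 and 0.057. The other scalings differ among themselves only by 1 shift per array, so the distance from the median is the same in them.

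**Figure D2:**
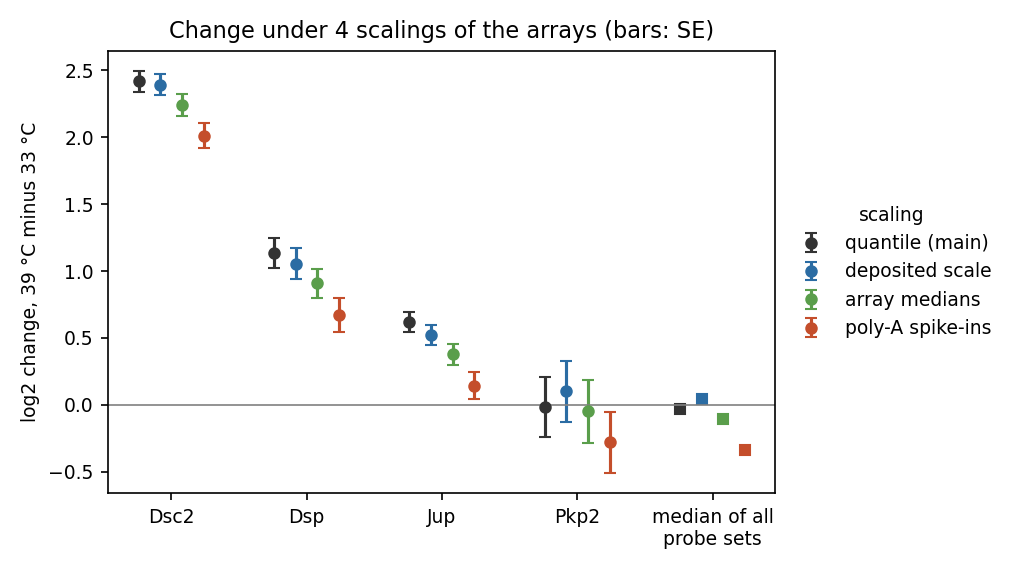
Log2 change (39 °C minus 33 °C, bars are SE) of the 4 desmosome genes under 4 scalings of the arrays, with the median change of all probe sets as squares. Dsc2 stays between 2.01 and 2.42, and Jup falls to 0.14 with the spike-in scaling, where the median of all probe sets is at -0.34.

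Differences between 2 genes on the same array do not depend on a factor by which the whole array was scaled, apart from the number added before the log. The log2 value of Dsc2 minus that of Dsp was -1.04 and -1.21 at 33 °C and 0.04 and 0.28 at 39 °C, so Dsc2 changed by 1.28 more than Dsp. Against Jup, the Dsc2 difference went from -1.57 and -1.46 to 0.24 and 0.32, a gap in change of 1.80. The gap was 2.44 against Pkp2. Dsp changed by 0.51 more than Jup and 1.15 more than Pkp2, and Jup by 0.64 more than Pkp2. On the deposited scale the gaps of Dsc2 were 1.34 to Dsp, 1.87 to Jup and 2.29 to Pkp2, and that of Dsp to Jup was 0.53. The gaps of Dsp and Jup to Pkp2 were smaller there, at 0.95 and 0.42. In each of these 6 pairs the 39 °C arrays lay above the 33 °C arrays. An exact permutation test over the 4 arrays (two-sided) gave 0.333 for each pair, also after adjustment over the 6 pairs, which is the smallest p that 2 against 2 allows. The design thus cannot show by this test that the 4 genes changed unequally. The pairs were chosen after the files were seen, in place of pairs with Dsc3 and Dsg2.

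**Figure D3:**
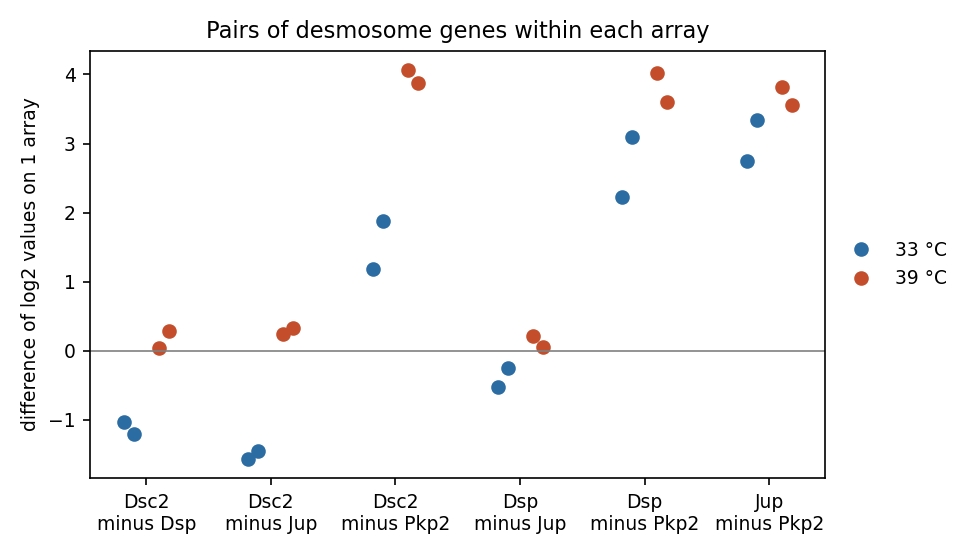
Difference of the normalized log2 values of 2 desmosome genes on the same array, for the 6 pairs, with 33 °C in blue and 39 °C in red. For Dsc2 minus Jup, the 33 °C arrays are at -1.57 and -1.46 and the 39 °C arrays at 0.24 and 0.32.

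Further proteins of the desmosomal plaque and membrane were covered by a list of 10 symbols, of which 3 were measured: 2 rose and 0 fell. Each gene of this and the following lists is given by its brightest probe set, and by that rule 13.6% of all genes were called higher and 15.0% lower. Evpl encodes envoplakin, a plakin that pairs with periplakin. Its intensities were 742.5 and 614.7 at 33 °C against 2055.3 and 2448.7 at 39 °C. Its log2 change was 1.71 ± 0.12 (SE; limma adjusted p 0.00019). Perp encodes a tetraspan membrane protein of desmosomes that is also a p53 target, and it changed by 0.48 ± 0.08 (SE; limma adjusted p 0.0051). A second Perp probe set changed by 0.72. The call of the first was lost when arrays were median-centred (0.24) or scaled to spike-ins (0.0099), and in the fit without an intensity trend. Pkp4, a more distant plakophilin that also sits at adherens junctions, was at 0.09 ± 0.12 (SE) and was not called.

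The adherens junction is the neighbouring cadherin junction, anchored to actin and sharing plakoglobin. All 13 of its listed genes were measured, of which 6 rose, 1 fell and 6 were not called (median log2 change 0.30, against -0.03 over all probe sets). The distance between these medians was smaller under the other scalings. It was 0.21 against 0.04 on the deposited scale, 0.06 against -0.10 after median centring and -0.17 against -0.34 with the spike-in scaling. The nectins led the rises, Nectin1 at 1.88 ± 0.22 and Nectin2 at 1.15 ± 0.10 (SE). A further Nectin2 probe set fell, at -0.82, so the direction of Nectin2 depends on the probe set. The count of rises rests on the brightest probe sets. Afdn, Ctnnb1, Vcl and Nectin4 were among them, but their further probe sets above the dim limit were not called. These were at 0.18 and -0.07 for Afdn, 0.14 and 0.12 for Ctnnb1, 0.25 for Vcl and 1.32 for Nectin4. A second probe set of Ajuba, named next, was called lower like the first (-0.97). Ajuba, a LIM protein that binds alpha-catenin, fell by 1.34 ± 0.08 (SE). E-cadherin (Cdh1), singled out after its values were seen, had intensities of 5810.5 and 5637 at 33 °C and 5707.9 and 5687.5 at 39 °C. Its log2 change was 0.09 ± 0.08 (SE, not called). With spike-in scaling 2 of these genes were higher and 3 lower, and Cdh1 was then among the lower (-0.39).

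Keratins are the filaments that desmoplakin holds. Of 15 listed, 11 were measured, and 3 rose, 2 fell and 6 were not called. Krt4, a keratin of stratified lining epithelia, rose from an intensity of 11.2 and 9.2, far under the dim limit of 81.1, to 430.2 and 480.9. The size of this rise depends on the number added before the log, with a log2 change of 4.06 when 16 was added, 5.17 with 1 and 2.74 with 64, all called. Krt6c rose by 3.60 ± 0.10 (SE), though its probe set can also detect related type II keratins. Another Krt6c probe set above the dim limit was called higher at 3.01 ± 0.15 (SE), and a dim one, at 0.87 ± 0.33 (SE), was not called. Keratins of simple epithelia did not move in 1 direction. Krt7 and Krt18 fell by 0.45 ± 0.09 and 0.36 ± 0.08 (SE), while Krt19 rose by 0.77 ± 0.08 and Krt8, the partner of Krt18, was at 0.23 ± 0.10 (SE) and not called. Krt19 and Krt8 were singled out after their values were seen, and neither was followed singly through the alternatives. The falls of Krt7 and Krt18 were both lost in the fit without an intensity trend (adjusted p 0.0999 and 0.141). They were also lost without nonpermissive replicate 1 (-0.40 and -0.35), and that of Krt18 without nonpermissive replicate 2 (-0.36). With the spike-in scaling 2 keratins were higher and 3 lower. Not all 3 rises therefore kept their call there, and that of Krt19 was the smallest of them.

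Hemidesmosomes fix the same keratins to the basement membrane. Of 5 measured genes 1 rose, Itgb4 at 1.25 ± 0.08 (SE), the integrin subunit that binds plectin. Itga6, the partner of Itgb4, was at -0.41 ± 0.11 and the laminin chain Lama3 at -0.39 ± 0.11 (SE). Both were called lower, and both calls were lost without permissive replicate 2 (-0.32 and -0.30) and without nonpermissive replicate 2 (-0.30 and -0.28). The Lama3 call was lost without nonpermissive replicate 1 as well (-0.49, adjusted p 0.0552). A second Itga6 probe set, also above the dim limit, was at -0.02 ± 0.28 (SE) and was not called. With spike-in scaling 4 of the 5 genes were lower.

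The cornified envelope is the protein shell of squamous cells, in which periplakin and envoplakin are built in early. Of its 6 measured genes 0 rose and 1 fell, and 5 of the 6 were dim. Tgm1, the transglutaminase that crosslinks the envelope, was at -0.41 ± 0.08 (SE), from 3794.4 and 3639 at 33 °C to 2467.5 and 2760 at 39 °C. That call was lost without nonpermissive replicate 1 (-0.34).

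Of 15 measured genes listed for desmosome assembly and turnover, 1 rose, 3 fell and 11 were not called, against 13.6% higher and 15.0% lower over all genes. The list holds kinases and proteases, and also calcium pumps and the GTPase Rhoa. Mmp14, a membrane metalloproteinase, rose by 0.82 ± 0.08 (SE). Gsk3b, a kinase that phosphorylates the tail of desmoplakin, fell by 1.28 ± 0.13, from 553.7 and 532.7 to 235.3 and 229.6. The metalloproteinase Adam15 fell by 0.81 ± 0.09 (SE). On the deposited scale 3 rose, and with spike-in scaling 7 fell.

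Of 9 measured transcription factors known to act on epithelial junction genes, 2 rose and 2 fell. Elf3, an epithelial Ets factor, rose by 1.70 ± 0.15 (SE), from 236.8 and 319.4 to 1000.7 and 953.4. Tp63, the regulator of basal and stratified epithelia, was called at 1.31 ± 0.30, but its intensities were 1.5 and 3.6 against 41 and 24.8, all under the dim limit. Its change was 3.15 with 1 added and 0.50 with 64. A second Tp63 probe set, also dim, was at 0.26 ± 0.26 (SE) and was not called. Cdx2 and Klf4 were at -0.56 ± 0.11 and -0.52 ± 0.11 (SE). The calls of Tp63 (1.14), Cdx2 (-0.54) and Klf4 (-0.53) were each lost without nonpermissive replicate 1. The Tp63 call was also lost without permissive replicate 1 (1.22) and with the spike-in scaling (adjusted p 0.0630). Klf4 also lost its call without the second array of either temperature (-0.49 at 33 °C, -0.50 at 39 °C). Of the repressors that bind the E-box shown above, Snai1 and Zeb1 were measured and both were dim and not called.

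**Figure D4:**
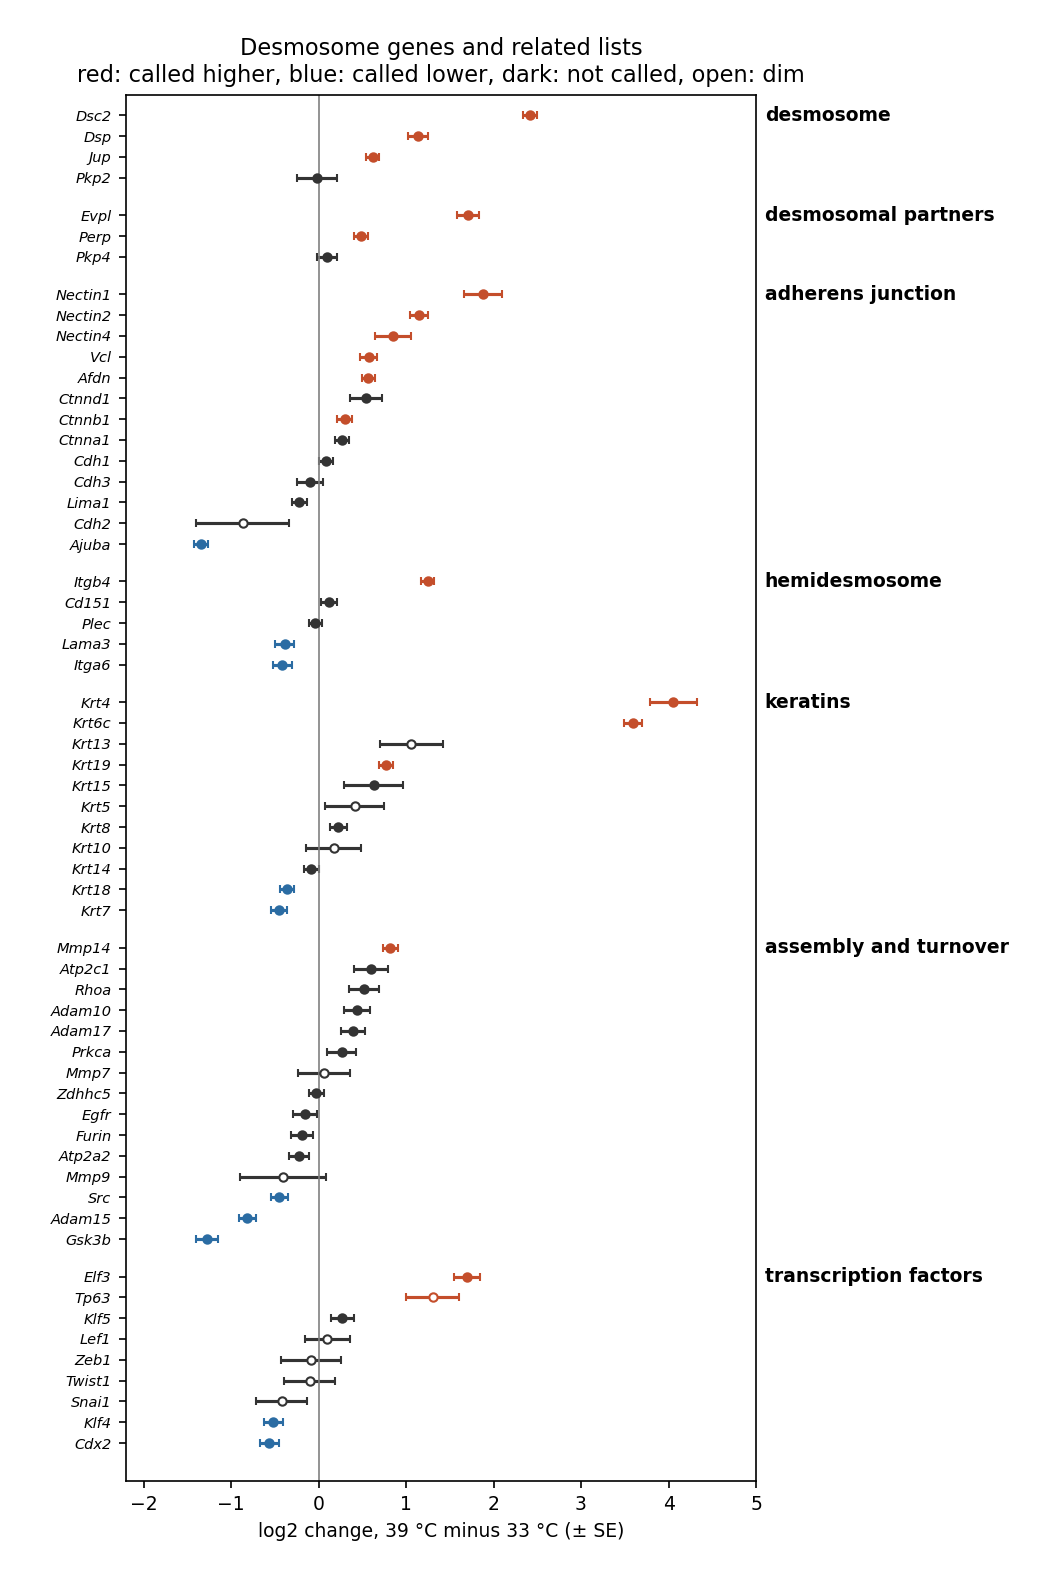
Log2 change (39 °C minus 33 °C, ± SE) of the measured desmosome genes and of 6 related lists, each gene by its brightest probe set. Red points were called higher, blue ones lower and dark ones not called, and open points lie under the limit for dim probe sets. Dsc2 (2.42) is exceeded in the plot by Krt4 (4.06, dim at 33 °C) and Krt6c (3.60).

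The genes whose 4 array values ran closest to those of Dsc2 were sought among 8154 named probe sets that were not dim. Likeness was the Euclidean distance between log2 values centred on their mean over the 4 arrays, so it is set mainly by the size of the change. The nearest were Xdh (xanthine dehydrogenase, distance 0.103), Upk3bl1 (a uroplakin-like protein, 0.139), Plau (urokinase, 0.140), 1 of the probe sets of Mdm2 (the ubiquitin ligase of p53, 0.161) and Igfbp7 (an IGF-binding protein, 0.177). Their log2 changes were 2.44, 2.35, 2.37, 2.56 and 2.34. The intensities of Xdh were 130.9 and 127.6 at 33 °C and 813.3 and 828 at 39 °C, and those of Plau 1732.9 and 2056.2 against 9600.2 and 9403.1. With 4 arrays in 2 groups, any probe set with a like rise and little spread would be near.

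The labelled cell type was checked by its markers. Of 9 measured epithelial markers, 8 lay above the dim limit on average and Krt5 did not. Their summed intensity was 59651.5 to 63397.3 at 33 °C and 71657.8 to 72419.3 at 39 °C, with 4 called higher and 1 lower, or 2 and 3 with the spike-in scaling. Of 7 listed secretory cell markers 2 were measured. Both were higher at 39 °C, Scgb1a1 by 3.15 and Muc1 by 1.30 on the log2 scale. Both rose from levels under the dim limit, so these sizes depend on the number added before the log. Of 4 ciliated cell markers 0 were called after quantile normalization. On the deposited scale 1 was called lower, with median centring 1 and with the spike-in scaling 2. The Muc1 call was lost without nonpermissive replicate 1 (1.26) or 2 (1.34). The sum of the 2 secretory markers went from 106.3 to 120.4 up to 729 to 854.3, and that of the ciliated ones from 20088.6 to 20193.8 down to 13226.4 to 15689. Nearly all of the ciliated sum is 1 probe set, that of the tubulin Tubb4b, with 19989.2 and 19789.4 at 33 °C and 15467.4 and 13076.7 at 39 °C (not called), while Foxj1 and Rsph1 were dim and not called. Tppp3 had the largest log2 change of the ciliated markers, at -0.91 ± 0.31 (SE, not called). Its intensities were 163.6 and 192.5 at 33 °C and 137.8 and 66 at 39 °C. Of 11 markers of fibroblasts and smooth muscle 4 were above the dim limit, with sums of 8633.6 to 9806.2 at 33 °C and 8260.4 to 8964.1 at 39 °C, most of it Vim. In that list Myh11 (1.84) and Col3a1 (1.61) rose from levels under the dim limit. Tagln fell from intensities of 252.2 and 306.8 to 7.9 and 4.1, also under that limit. The sizes of these changes depend on the number added before the log. With 64 or 1 added they were 1.08 or 2.45 for Myh11, 1.16 or 1.85 for Col3a1 and -2.35 or -5.50 for Tagln, all called. The calls of Myh11 and Col3a1 were lost without nonpermissive replicate 1 (1.78 and 1.34). Leukocyte markers were dim but for Cd14, with sums of 1068.6 to 1114.5 at 33 °C and 915.5 to 961.2 at 39 °C. Of the 7, 0 were called, against 2 lower with median centring and 3 lower with the spike-in scaling. The largest changes among them were those of Cd68 (1.03 ± 0.32) and Cd74 (-1.02 ± 0.31, SE), neither called. All 3 endothelial and 4 cardiac muscle markers were dim, with sums of at most 120.1 and 121.2. The largest log2 changes there were those of Pecam1 (0.64 ± 0.56) and Myh7 (-0.78 ± 0.41, SE), neither called. The part of these marker changes in the desmosome changes was not tested. The ratio of the 3′ to the 5′ control probe set was 1.18 and 1.33 at 33 °C and 1.38 and 1.26 at 39 °C for actin, and 1.17 and 1.14 against 1.12 and 1.01 for Gapdh, whose part was not tested either.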

How the data were processed

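Per the labels' protocols, total RNA was treated with DNase, amplified once and transcribed into biotin-labelled cRNA. The deposited table holds linear intensities of 15923 probe sets on 4 arrays. Which software made them was not given in the sources used here. With 2% trimmed at each end, the mean of the authors' intensities is 500.1 or 500.2 on each array, which shows a common scaling by the authors. Their number limits the precision.

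Groups came from the sample titles. The 57 control probe sets were left out, and log2(intensity + 16) was quantile normalized, because array medians differed by 0.175. The median intensities were 152.7 and 155.6 at 33 °C and 174.3 and 171.1 at 39 °C. The shift that was removed thus lies mainly between the groups and cannot be told apart from temperature. Genes were named through GEO's platform annotation. A mean under the 40th percentile (log2 6.60, intensity 81.1) was called dim, with no filter in the main test. The test was limma 3.58.1 in R 4.3.3 (lmFit, then eBayes with a trend on intensity, residual degrees of freedom 2) over all 15866 probe sets with Benjamini-Hochberg adjustment at 0.05. It was tested on simulated data. The rule for naming genes took the 2 largest called rises and the 2 largest called falls of each list, or the 1 largest change in a list without calls, and the 5 genes nearest to Dsc2. Other genes of the lists, such as Cdh1, Krt19, Tubb4b, Foxj1, Rsph1, Cd14 and Cd74, were named outside this rule. Replicates were not copies of each other, with 0.202% and 0.221% identical values. The members and lists were chosen with earlier results of these data known. Figures were drawn with matplotlib 3.10.9.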

Additional observations from a re-analysis of the deposited data

How the results depend on the processing

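Dsc2 and Dsp were called higher under all 14 alternatives run. Jup was not called under 2 of them, the spike-in scaling and the fit without an intensity trend, and Pkp2 was called under none. Counts over all probe sets were 1920 higher and 2006 lower. They were 961 and 4087 with spike-in scaling, and 949 and 889 without an intensity trend. Leaving out 1 array gave 1032 to 1639 higher and 1181 to 1572 lower, with the lowest counts when a nonpermissive array was left out, and the lone array of a group is then assumed to vary like the others. Changes whose sign turned were all uncalled in the main test: Pkp2 (0.10 on the deposited scale, -0.32 to 0.29 over the arrays left out in turn, of which 0.094 without nonpermissive replicate 1), Pkp4 (-0.21 with spike-in scaling, -0.013 to 0.20 over the arrays left out), Cdh1 (-0.0064 on the deposited scale, -0.16 with arrays centred on medians, -0.39 with spike-in scaling) and Pecam1 (-0.22 to 1.501 over the arrays left out). Of 487 values for the 36 called probe sets carried through the alternatives, 452 kept the call and 35 lost it, with no change of sign. Other called probe sets named here, such as that of Krt19 and the dim one of Atp2c1, were not among the 36. Without an intensity trend the lost calls were those of Jup, Perp, Itga6, Lama3, Krt7, Krt18, Tgm1, Cdx2, Klf4 and the falling Nectin2 probe set, and the Lama3 call was also lost with 64 added in place of 16. The replicate numbers do not pair the arrays: same-numbered deviations correlated at 0.0068, and with the replicate block 1942 were higher and 2033 lower, with the same 3 desmosome genes called. The comparisons of Dsc2 with Dsc3 and with Dsg2 were not run, since neither has a probe set here.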

Other observations

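Other probe sets of the genes in these lists did not always follow the brightest one. For Nectin2, 1 probe set went from 642.5 and 656.1 at 33 °C to 1376.9 and 1583.1 at 39 °C, and another from 586.7 and 637.9 to 410.7 and 317.3. Both were called, in opposite directions. For Atp2c1, the calcium pump of the Golgi, the brightest probe set had intensities of 142.6 and 157.2 against 287 and 236.8 (log2 change 0.60, not called). A dim one was called lower, at -1.35. Both genes were singled out after their values were seen. None of the 4 measured desmosome genes has a second probe set, so this check could not be made for them.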
